A study of Mus musculus and Homo sapiens with 33 samples.

Results

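The genes described here encode the MuvB core and the proteins that join it. They are the core subunit genes Lin9, Lin37, Lin52, Lin54 and Rbbp4, the transcription factor genes Mybl2 (B-MYB) and Foxm1, and the pocket protein genes Rbl1 (p107), Rbl2 (p130) and Rb1. They were taken from the KPL RNA-seq count matrix by their mouse gene symbol, and all 10 were found among its 38924 distinct gene IDs. The tested libraries were 3 from KPL cells given 4-hydroxytamoxifen (4-OHT) for 72 hours, at a dose that the labels write as 10 nm, and the libraries set against them were 3 from control cells, named EtOH in the sample descriptions. KPL is a murine lung adenocarcinoma line, and the labels state that 4-OHT deletes Lin9 in it. The recombinase, the deleted exons, any alleles shared by both groups and the number of clones are stated in none of the sources used here. The other 27 samples of the series are ChIP-seq libraries and were not analysed here.

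MuvB is a multi-subunit complex that works as a platform on cell cycle promoters. In resting and early G1 cells it joins a pocket protein, p130 or p107, with E2F4 or E2F5 and a DP protein to form DREAM, which represses cell cycle genes. From S phase on the pocket protein and E2F leave, and the same core with B-MYB and later FOXM1 activates genes of G2 and mitosis. RB1 is a pocket protein that binds activator E2Fs and is not part of DREAM.

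The 4-OHT libraries held 5894309 to 5913942 counted reads and the control libraries 5859826 to 5876193. Of 38924 gene IDs, 13355 passed the low-count filter, among them all 10 genes described here. The labelled cell type was checked with markers: the summed level of 9 epithelial and lung carcinoma markers was 6048 to 6217 CPM in 4-OHT libraries and 6182 to 6267 CPM in control libraries (CPM, read counts scaled to library size). Of these, 7 passed the filter, 3 were lower after 4-OHT and 0 were higher, where 5.17% of all genes tested were lower and 4.61% higher. The lower ones, named after their values were seen, were Epcam, Krt7 and Cdh1. They averaged 171, 587 and 527 CPM in 4-OHT and 223, 696 and 581 CPM in control libraries. Their log2 fold changes were -0.38, -0.25 and -0.14. Named after its values were seen, the alveolar surfactant gene Sftpc had 0 reads in every library and Sftpb, named likewise, had 2 reads in 4-OHT and 1 in control libraries. Krt8, Krt18 and Krt19, named likewise and not called, averaged 1912, 1556 and 1364 CPM in 4-OHT and 1840, 1557 and 1324 CPM in control libraries. The lung lineage gene Nkx2-1, named likewise, averaged 4.74 and 6.51 CPM. The sum thus mostly reflects keratins and does not check lung origin. Markers of fibroblasts (5 genes) summed to 5.57 to 8.48 CPM in 4-OHT and 7.37 to 9.76 CPM in control libraries, those of endothelium (3 genes) to 2.20 to 4.05 and 2.40 to 2.92 CPM, and those of leukocytes (4 genes found) to 1.87 to 3.05 and 1.20 to 4.79 CPM. The part of these markers in the results below was not tested. Nothing in the labels says that the replicates were grown apart, so each p-value reflects at most the variation among 6 libraries, part of which may be technical. That variation was small: the common coefficient of variation beyond counting was 2.58% in the fit.

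MuvB and its partners reach DNA through short letter patterns, so the promoters of the genes themselves are shown. LIN54 binds the cell cycle homology region (CHR), written TTTGAA or TTCGAA, and E2F and DP proteins bind sites that include TTCCCGC or TTGGCGC or TTCGCGC or TTGCCGC. RefSeq windows of GRCm38.p6, from 250 bases before to 50 bases after a transcript start, were found for 7 of the 10 genes, with a pair of start sites for Lin54. No window was used for Lin9, Foxm1 or Rb1. The stretches below are the 250 bases before the start of Rbl1, Lin52 and Lin37 and of 1 of the Lin54 starts. They were chosen because Rbl1 and Lin52 show E2F-type letters close to the start and Lin37 and this Lin54 start show CHR letters farther upstream. Capitals mark those letters on either strand.
Rbl1: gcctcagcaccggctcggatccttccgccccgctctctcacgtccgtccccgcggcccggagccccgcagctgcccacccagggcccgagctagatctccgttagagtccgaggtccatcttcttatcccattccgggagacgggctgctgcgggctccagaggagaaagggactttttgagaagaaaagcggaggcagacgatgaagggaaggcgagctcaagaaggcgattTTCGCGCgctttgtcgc
Lin52: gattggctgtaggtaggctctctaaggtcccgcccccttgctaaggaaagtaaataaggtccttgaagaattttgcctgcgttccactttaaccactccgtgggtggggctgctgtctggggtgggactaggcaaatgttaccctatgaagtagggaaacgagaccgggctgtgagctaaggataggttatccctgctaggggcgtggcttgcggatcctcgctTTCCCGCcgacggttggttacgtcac
Lin37: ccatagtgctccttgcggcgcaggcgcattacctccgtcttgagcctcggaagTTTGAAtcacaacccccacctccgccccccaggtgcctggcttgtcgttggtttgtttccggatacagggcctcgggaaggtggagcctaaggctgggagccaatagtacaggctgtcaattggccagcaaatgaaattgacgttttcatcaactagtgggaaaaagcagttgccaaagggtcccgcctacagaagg
Lin54: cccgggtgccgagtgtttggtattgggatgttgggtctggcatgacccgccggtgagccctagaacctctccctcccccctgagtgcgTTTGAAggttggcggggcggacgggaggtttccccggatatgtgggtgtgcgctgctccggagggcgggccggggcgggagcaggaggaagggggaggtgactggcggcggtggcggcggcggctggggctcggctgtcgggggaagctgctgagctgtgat
The Rbl1 stretch is chr2:157204535-157204784 on the minus strand, that of Lin52 chr12:84451258-84451507 on the plus strand, that of Lin37 chr7:30559647-30559896 on the minus strand and that of Lin54 chr5:100498574-100498823 on the minus strand.

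The Rbl1 stretch holds TTCGCGC beginning 17 bases before the start, and the Lin52 stretch holds TTCCCGC beginning 26 bases before it. TTTGAA begins 197 bases before the start in the Lin37 stretch and 162 bases before it in the Lin54 stretch. The window of this Lin54 start also holds TTCGAA, beginning at base 30 after the start and so outside the stretch shown. It lies inside the Lin54 gene span, chr5:100442033-100500639. For the other Lin54 start, at the 5' end of that span, the only CHR letters begin at base 41 after the start. Over all 8 windows, counting both strands, the CHR letters were found in 4 (both of Lin54, Lin37 and Rbl2) and the E2F-type letters in 3 (Rbl1, Rbbp4 and Lin52), against 19.2% and 9.57% of 32851 windows in the RefSeq table. The Mybl2 window held neither, which says only that these letters are not in that window. That window begins at chr2:163054385, inside the Mybl2 gene span that begins at chr2:163054327, so the sequence before the span was not searched. The MYB-type letters AACNG were found in 6 of the 8 windows and in 80.3% of all windows. A match is a description of letters and not of a bound site.

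Of the 10 genes, 2 were lower after 4-OHT and 0 were higher, where 5.17% and 4.61% of all genes tested were called, or 9.79% in either direction (edgeR, quasi-likelihood F test, threshold 0.05 on the p adjusted by Benjamini and Hochberg). The called genes were Lin9, whose level was 71.1% of control, and Foxm1, at 89.9%. Lin9 is the gene that the treatment targets, so its call says nothing about the rest of the complex. Foxm1 was the only other call, and it was lost in 5 of 13 alternatives. The median log2 fold change of the 10 was -0.04, against 0.00052 over all genes tested. All values are whole-culture averages, so fewer cells that express a gene and less RNA of it per cell cannot be told apart. The exon lengths needed to compare levels between genes were not used here, so each gene is compared only with itself between groups or, within a library, as a share or ratio of reads.

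**Figure D1:**
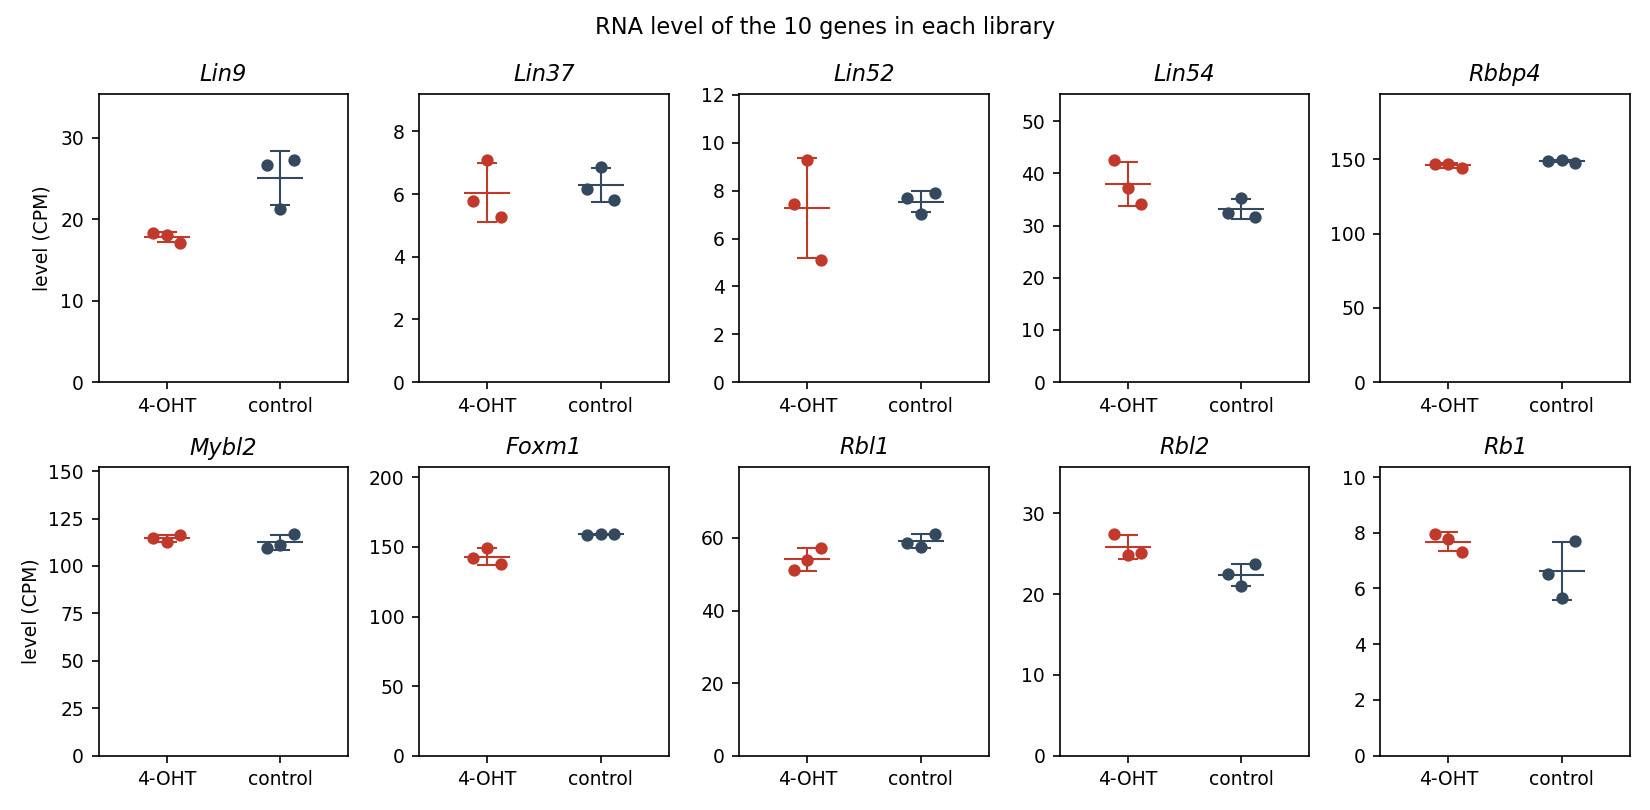
Each panel plots the level of 1 gene in CPM (vertical axis, from 0) in the 3 4-OHT libraries (red, left) and the 3 control libraries (grey-blue, right), with the mean and SD as bars. The groups are apart for Lin9, Rbbp4, Foxm1 and Rbl1, with 4-OHT below, and for Rbl2, with 4-OHT above, while for Lin37, Lin52, Lin54, Mybl2 and Rb1 they overlap.

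Lin9 encodes the core subunit that the treatment targets, and its gene spans chr1:180641150-180690687 in the RefSeq annotation of GRCm38.p6. Its level was 18.3, 18.1 and 17.1 CPM in the 4-OHT libraries, against 26.7, 21.3 and 27.3 CPM in the control libraries. All 4-OHT libraries were below all control libraries, and control replicate 2 was the control library nearest to them. The log2 fold change was -0.49 (SE 0.11, 95% interval -0.72 to -0.27, edgeR adjusted p = 0.0011), so that 60.8% to 83.2% of the control level was within the interval. The count covers the whole gene and does not separate deleted exons from others. The origin of the remaining Lin9 reads was not tested. The fall of Lin9 ranked 180th by size among the 691 genes called lower and 492nd by p among all genes tested. In the authors' deposited table Lin9 has a log2 fold change of -0.49 and an FDR of 0.00031.

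The other core subunits did not pass the test, with very different precision. LIN37 is needed for repression by DREAM, and its gene had only 34, 42 and 31 reads in 4-OHT libraries, against 36, 40 and 34 reads in control libraries. LIN52 links the pocket protein or B-MYB to the core, and Lin52 had 44, 55 and 30 reads in 4-OHT libraries, against 45, 41 and 46 in control libraries. Both genes overlapped between groups, and 4-OHT replicate 3 was the lowest library for each. The 95% intervals reached from 72.6% to 127% of control for Lin37 and from 74.2% to 126% for Lin52. With so few reads and libraries, changes within these limits are not excluded. The log2 fold change of -0.06 for Lin37 became 0.03 without 4-OHT replicate 3, 0.01 without control replicate 2 and -0.19 without 4-OHT replicate 2. That of -0.05 for Lin52 became 0.15 without 4-OHT replicate 3 and -0.26 without 4-OHT replicate 2.

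Lin54 encodes the DNA-binding subunit that reads the CHR. It stood at 42.6, 37.3 and 34.1 CPM in 4-OHT libraries, against 32.5, 35.4 and 31.7 CPM in control libraries. The groups overlapped, as 4-OHT replicate 3 lay under control replicate 2. The log2 fold change was 0.19 (SE 0.09, 95% interval 0.02 to 0.37), which did not pass over all genes (unadjusted p = 0.030, edgeR adjusted p = 0.176). It was 0.11 without 4-OHT replicate 1 and 0.26 without 4-OHT replicate 3. Rbbp4 encodes a histone-binding WD-repeat protein that MuvB shares with several chromatin complexes. It stood at 147, 147 and 144 CPM in 4-OHT libraries, against 149, 149 and 148 CPM in control libraries. The groups did not overlap, yet the log2 fold change was -0.03 (95% interval -0.12 to 0.06, edgeR adjusted p = 0.812), the narrowest interval among the core genes, from 92.1% to 104% of control.

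Since the core subunits act in 1 complex, the share of Lin9 among the reads of the 5 core genes was taken within each library, which needs no scaling between libraries. Lin9 made up 8.28%, 8.26% and 8.33% of these reads in 4-OHT libraries, against 12.0%, 9.68% and 12.4% in control libraries. The exact 95% binomial intervals, which cover counting error only, were 6.84% to 9.91%, 6.82% to 9.90% and 6.84% to 10.03% in 4-OHT libraries and 10.3% to 13.9%, 8.12% to 11.4% and 10.6% to 14.3% in control libraries. The interval of control replicate 2 thus overlapped those of all 4-OHT libraries. The mean share was 8.29% ± 0.0365 in 4-OHT and 11.4% ± 1.46 in control libraries (SD, n = 3 each), a difference of -3.06 percentage points. By an exact two-sided permutation test p was 0.1, the smallest value that 3 against 3 libraries allow, and 0.12 adjusted over the 6 shares and ratios examined. The core reads are mostly of Rbbp4, so the share repeats the Lin9 levels given above. Its p is thus no further evidence.

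**Figure D2:**
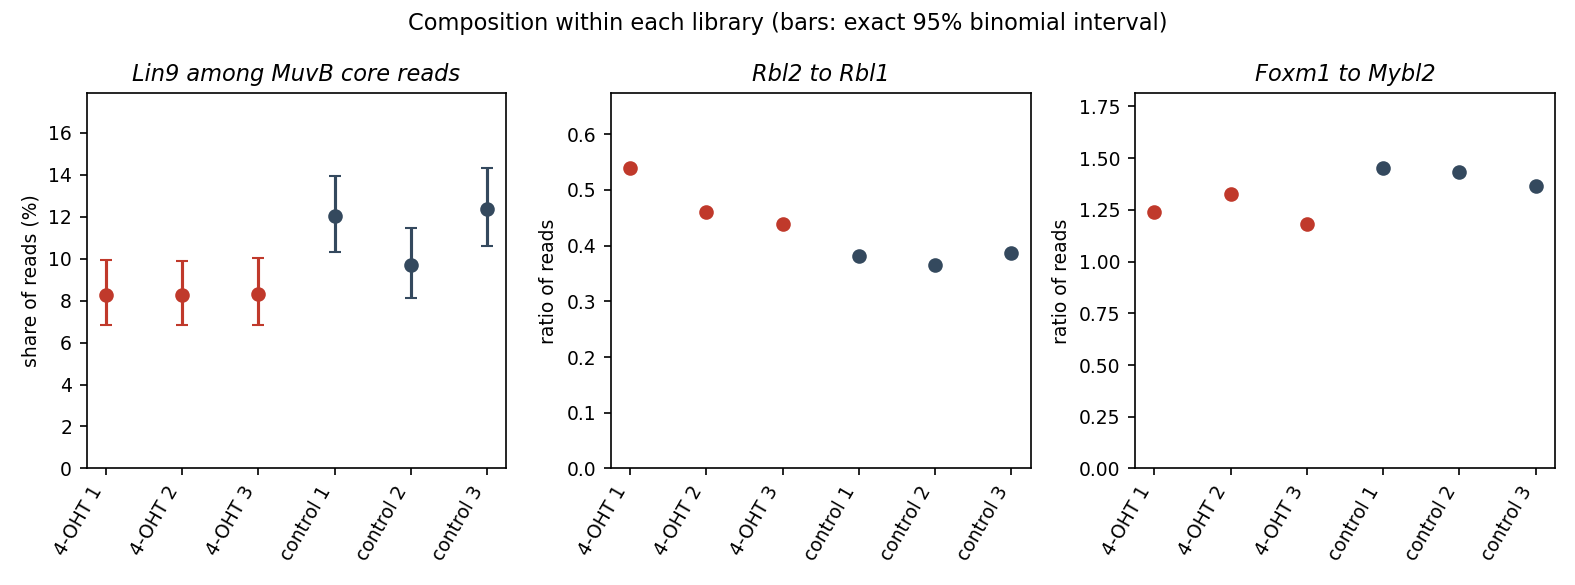
The left panel plots the share of Lin9 among the reads of the 5 MuvB core genes in each library (%), with exact 95% binomial intervals, and the other panels plot the ratio of Rbl2 to Rbl1 reads and of Foxm1 to Mybl2 reads. In each panel the 3 4-OHT libraries (red, left) and the 3 control libraries (grey-blue, right) do not overlap, with the share of Lin9 near 8.3% in every 4-OHT library.

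Foxm1 and Mybl2 encode the activators that work with MuvB from S phase to mitosis. Foxm1, a forkhead factor of G2 and mitotic genes, stood at 142, 149 and 137 CPM in 4-OHT libraries, against 159, 159 and 159.6 CPM in control libraries. Every 4-OHT library was lower, and the control libraries were nearly equal. The log2 fold change was -0.15 (SE 0.05, 95% interval -0.25 to -0.06, edgeR adjusted p = 0.017), a fall to 84.4% to 95.7% of control within the interval. The call was lost in DESeq2 (adjusted p = 0.166), without 4-OHT replicate 1 (edgeR adjusted p = 0.054) or 3 (0.093) and without control replicate 1 (0.065) or 3 (0.060). The authors' deposited table gives Foxm1 a log2 fold change of -0.16 and an FDR of 0.029.

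Mybl2, which encodes B-MYB, the MYB factor that binds the core directly, stood at 115, 113 and 116 CPM in 4-OHT libraries, against 109.5, 111 and 117 CPM in control libraries. The highest library was a control one, and the groups overlapped. The 95% interval of the log2 fold change, -0.08 to 0.13, holds 94.9% to 109% of control (edgeR adjusted p = 0.847), so a fall of the size seen for Lin9 is outside it. The log2 fold change of Mybl2 was 0.03, and lay between 0.0067 (without control replicate 1) and 0.055 (without control replicate 3) when 1 library was left out. The ratio of Foxm1 to Mybl2 reads, examined after the values were seen, was 1.24, 1.32 and 1.18 in 4-OHT libraries, against 1.45, 1.43 and 1.36 in control libraries. The groups did not overlap, with a difference of -0.18 on the log2 scale (exact two-sided permutation p = 0.1, the smallest possible, and 0.12 adjusted). Foxm1 alone did not overlap between groups either, so the p of this ratio is no further evidence. Of the MYB paralogs, Mybl1 had 229 reads in 4-OHT and 256 in control libraries (log2 fold change -0.18, edgeR adjusted p = 0.522). This value was -0.0023 without 4-OHT replicate 3 and -0.29 without 4-OHT replicate 2. Myb, with 17 reads in 4-OHT and 19 in control libraries, was under the filter and not tested.

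None of the pocket protein genes passed the test, and their fold changes had both signs. Rbl1, which encodes p107, the pocket protein of cycling cells and itself an E2F target, stood at 51.0, 54.0 and 57.2 CPM in 4-OHT libraries, against 58.7, 57.5 and 61.2 CPM in control libraries. Rbl2, which encodes p130, the main pocket protein of DREAM in resting cells, stood at 27.5, 24.8 and 25.1 CPM in 4-OHT libraries, against 22.4, 20.95 and 23.7 CPM in control libraries. Neither gene overlapped between groups, Rbl1 being lower and Rbl2 higher in each 4-OHT library. The log2 fold changes were -0.13 for Rbl1 (95% interval -0.27 to 0.01, edgeR adjusted p = 0.271) and 0.21 for Rbl2 (95% interval -0.0018 to 0.42, edgeR adjusted p = 0.241). Rb1, which encodes the retinoblastoma protein, had only 47, 46 and 43 reads in 4-OHT libraries, against 38, 33 and 45 reads in control libraries. These overlapped, and the interval for Rb1 was wide, from 89.2% to 150.1% of control (log2 fold change 0.21, edgeR adjusted p = 0.591). Without control replicate 2 the log2 fold change of Rb1 was 0.11, and without control replicate 3 it was 0.33.

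The balance of the DREAM pocket proteins was also taken within libraries. The ratio of Rbl2 to Rbl1 reads was 0.538, 0.459 and 0.439 in 4-OHT libraries, against 0.382, 0.364 and 0.387 in control libraries. All 4-OHT libraries lay above all control libraries, with 4-OHT replicate 1 the highest. This separation follows from the levels of Rbl1 and Rbl2 given above, neither of which was called. The permutation p of the ratio was thus fixed by them and is no further evidence. The means were 0.479 ± 0.0523 in 4-OHT and 0.378 ± 0.0118 in control libraries (SD, n = 3 each), a difference of 0.34 on the log2 scale (exact two-sided permutation p = 0.1, the smallest possible, and 0.12 adjusted). Without 4-OHT replicate 1 the difference was 0.25. Rbl1 made up 61.7% ± 2.47 of pocket protein reads in 4-OHT and 67.2% ± 1.14 in control libraries, Rbl2 29.5% ± 2.00 and 25.3% ± 0.389, and Rb1 8.78% ± 0.561 and 7.50% ± 0.802 (SD, n = 3 each).

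In all, 4 of the 10 genes had every 4-OHT library below every control library and 1 had them above, where 12.2% and 12.1% of all genes tested did so, or 24.3% either way. Lin9, the gene that the treatment targets, is among the 4. For Rbbp4, Rbl1 and Rbl2 this separation came without a call.

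**Figure D3:**
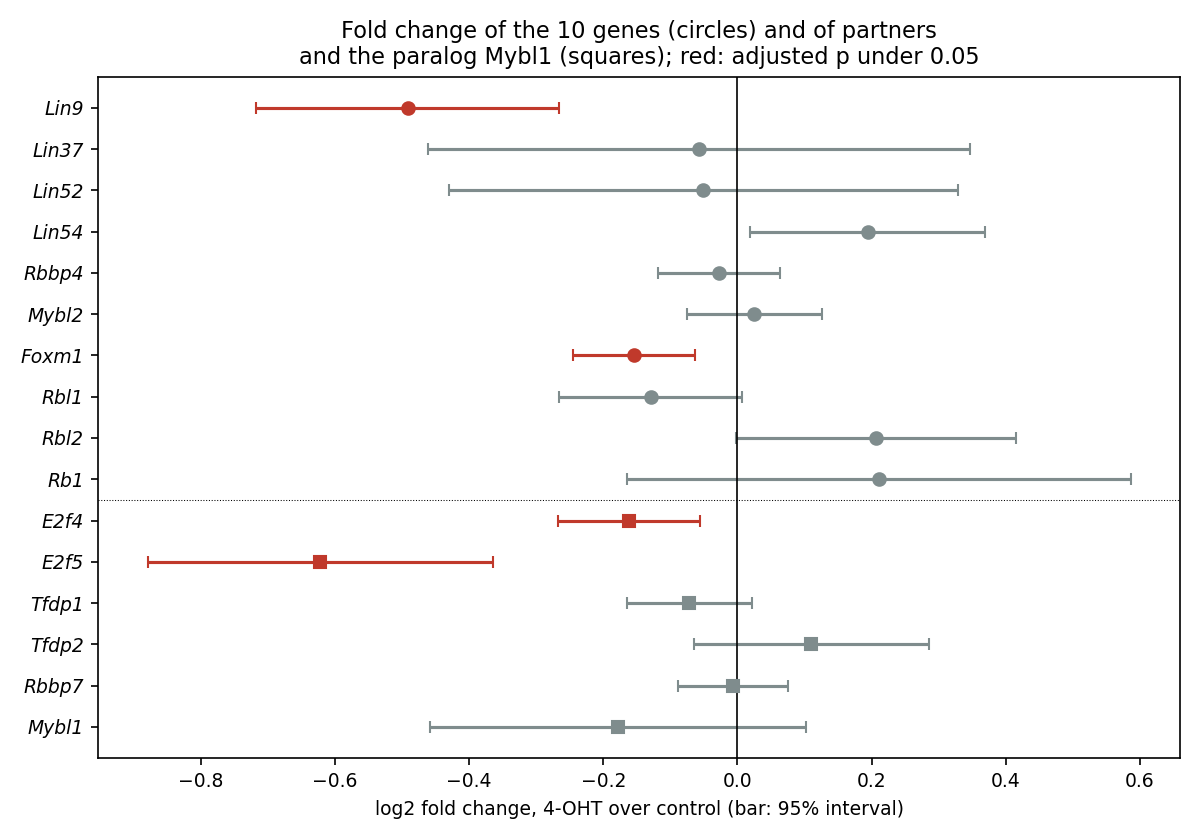
The horizontal axis is the log2 ratio of 4-OHT to control, with 95% intervals as bars, for the 10 genes (circles) and for E2F, DP, Rbbp7 and Mybl1 (squares), red where the adjusted p is under 0.05. The intervals of Lin9, Foxm1, E2f4 and E2f5 lie below 0, those of Lin37, Lin52 and Rb1 are the widest of the 10, and that of Lin54 lies above 0 without a call over all genes.

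Among the genes of the other DREAM partners, 2 of 5 were lower and 0 higher, where 5.17% and 4.61% of all genes tested were called, with a median log2 fold change of -0.07. E2f5, a repressor E2F gene, stood at 12.5, 12.1 and 11.7 CPM in 4-OHT libraries, against 19.0, 17.3 and 19.7 CPM in control libraries, without overlap. Its log2 fold change was -0.62 (SE 0.13, edgeR adjusted p = 0.00025), beside -0.49 for Lin9, and the difference between these genes was not tested. E2f4, the other E2F gene of DREAM, averaged 97.4 ± 2.87 CPM in 4-OHT and 109.0 ± 3.28 CPM in control libraries (SD, n = 3 each), which is -0.16 on the log2 scale (edgeR adjusted p = 0.034). That call was lost in 7 of 13 alternatives, namely DESeq2 (adjusted p = 0.276), library totals alone (0.051) and without each library except control replicate 3 (0.056 to 0.194). The DP genes Tfdp1 (log2 fold change -0.07) and Tfdp2 (0.11) and Rbbp7 (-0.0064), the paralog of Rbbp4, were not called. When 1 library was left out, Tfdp2 lay between 0.067 (without control replicate 1) and 0.19 (without 4-OHT replicate 3), and Tfdp1 between -0.10 (without 4-OHT replicate 2) and -0.047 (without 4-OHT replicate 1).

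Kinases and cyclins that act on the complex, B-MYB, FOXM1 or the pocket proteins had 6 of 16 genes lower and 0 higher, where 5.17% of all genes tested were lower and 4.61% higher, with a median of -0.06. The 2 with the smallest p were Plk1 (log2 fold change -1.36), a kinase that phosphorylates FOXM1, and the mitotic cyclin gene Ccnb1 (-0.84). Named after their values were seen, Ccna2 (-0.74), Cdk1 (-0.61), Ccne1 (-0.44) and Ccnd2 (-0.14) were the others called. Plk1, Ccnb1, Ccna2 and Cdk1 are also in the list of late targets described next, and Ccne1 in that of early targets, so these calls are counted again there. Dyrk1a, the kinase gene for the LIN52 phosphorylation that assembles DREAM, named likewise, was not called (log2 fold change -0.05, edgeR adjusted p = 0.756).

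The levels of the genes that the complex is known to control are given as context, from lists chosen with results of these data known, and their counts stand beside the same 5.17% lower and 4.61% higher over all genes tested. Of 40 late cell cycle targets of MuvB, B-MYB and FOXM1, 38 were lower, 1 was higher (Bub1, named after its value was seen) and 1 was not called, with a median log2 fold change of -0.74. Mki67, a proliferation antigen gene, averaged 171 ± 8.09 CPM in 4-OHT and 438 ± 23.2 CPM in control libraries, and Aspm, a spindle pole gene, averaged 37.0 ± 1.68 and 119.0 ± 5.31 CPM (SD, n = 3 each). Of 35 early targets of E2F and DREAM, 32 passed the filter, of which 11 were lower, 0 higher and 21 not called, with a median of -0.14. Uhrf1, a gene of maintenance DNA methylation, changed by -0.43 and Mcm6, a subunit gene of the replicative helicase, by -0.28 on the log2 scale. In the RefSeq windows the CHR letters were found in 28 of 37 windows of the late and in 6 of 32 windows of the early targets, and the E2F-type letters in 6 and 20 of them.

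**Figure D4:**
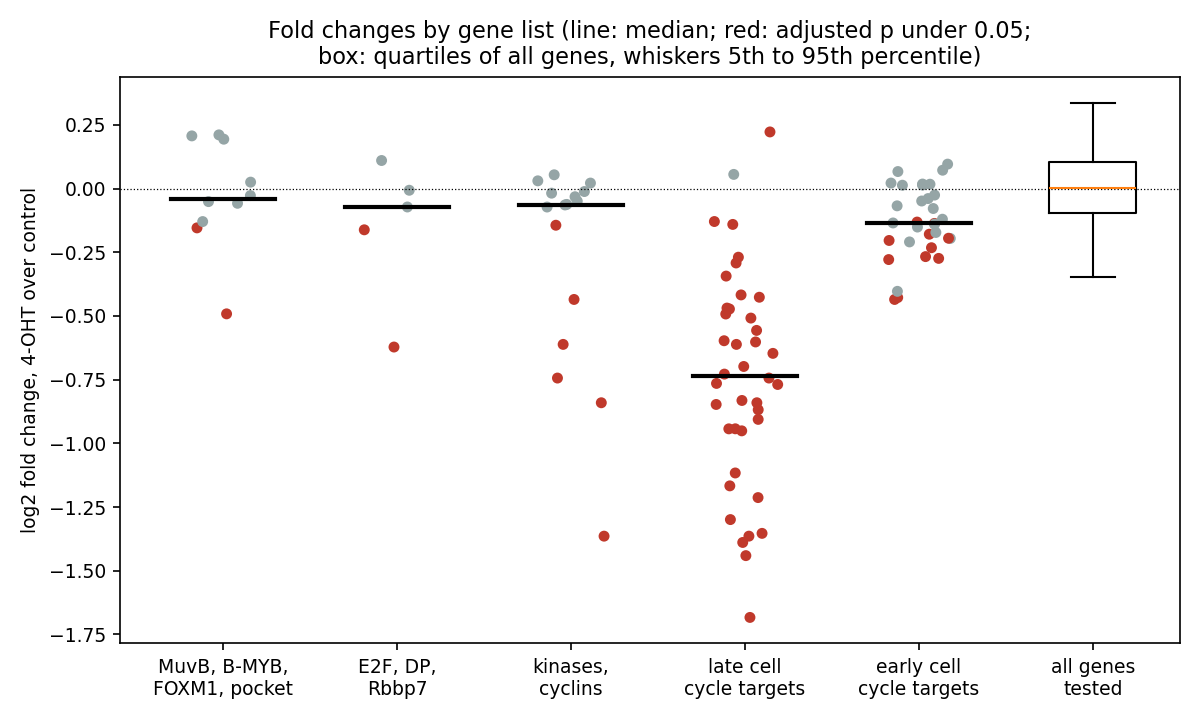
Each point is the log2 fold change (4-OHT over control, vertical axis) of 1 tested gene in 5 gene lists, red where the adjusted p is under 0.05, with the median as a line, and the box at the right shows all 13355 genes tested. The median is -0.74 for late cell cycle targets, -0.14 for early ones and -0.04 for the 10 genes encoding the complex, whose points lie between -0.15 and 0.21 apart from Lin9 at -0.49.

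By the root mean square difference of log2 CPM, each gene centred over the 6 libraries, the genes with a pattern most like Lin9 were Impa2, Vnn3, Dbf4, Cth and Kri1, out of 10042 genes with a mean of at least 10 CPM. Their differences from Lin9 were 0.05 to 0.07 log2 units. These genes were picked for this likeness in the same 6 libraries, so their lower level after 4-OHT comes with the choice. Counting alone gives a spread of 8.91% for Lin9, and how much of the likeness is noise was not tested. Impa2 encodes an inositol monophosphatase, Cth an enzyme of cysteine synthesis and Dbf4 the activator of the CDC7 replication kinase. Dbf4 averaged 83.4 ± 4.87 CPM in 4-OHT and 113 ± 9.24 CPM in control libraries (SD, n = 3 each), or -0.44 as a log2 ratio.

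Overlaps between genes limit what a whole-gene count can say, since no source used here says whether counting used strand. The Rbl2 span shares 12064 bases with Aktip, which had 832 reads in 4-OHT and 770 in control libraries. Foxm1 shares 377 bases with Tex52, Rbbp4 2284 bases with Sync (52 and 42 reads) and Lin37 3 bases with Hspb6 (313 and 312 reads). Lpar6, which shares 2468 bases with the Rb1 span, is listed at 0 in every library. The part of these overlaps in the results was not tested.

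**Figure D5:**
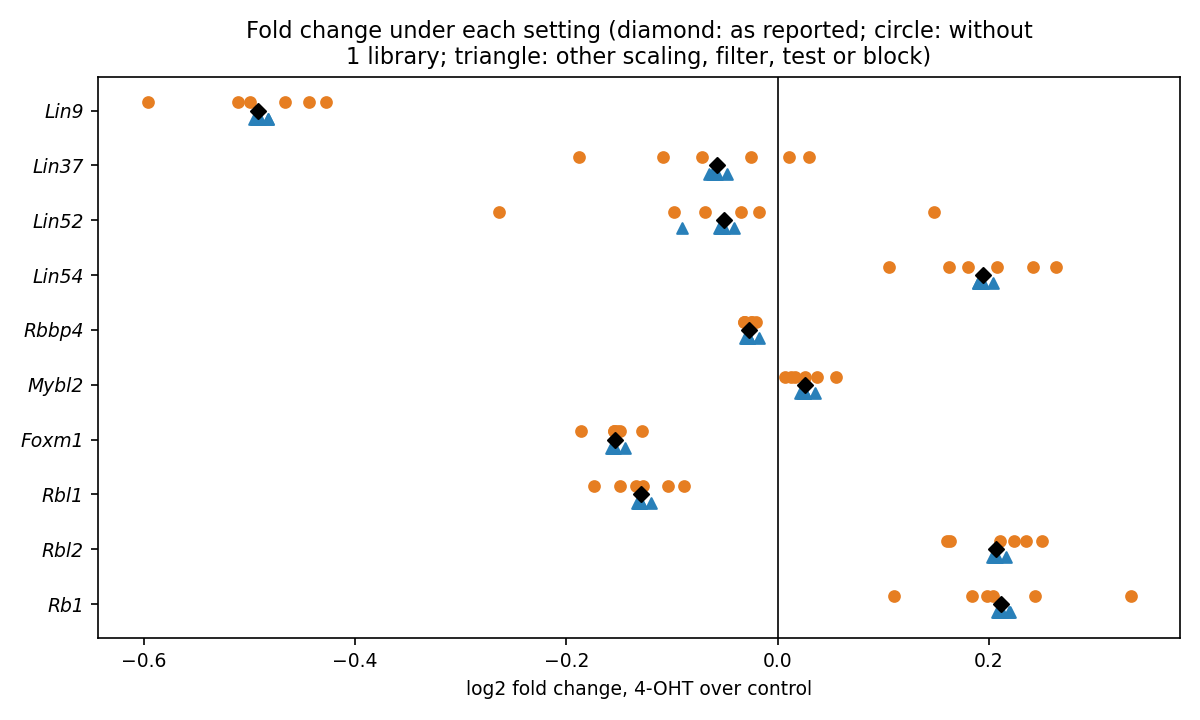
For each of the 10 genes the horizontal axis gives the log2 ratio of 4-OHT to control as reported (diamond), without 1 library (circles) and under another scaling, filter, test or the replicate block (triangles). Lin9 and Foxm1 stay below 0 throughout, Lin54, Rbl2 and Rb1 above 0, and Lin37 and Lin52 are found on both sides when 1 library is left out.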

How the data were processed

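Polyadenylated RNA of KPL cells was sequenced in 3 4-OHT and 3 control libraries, made with an NEBNext Ultra kit per the labels' protocols. The deposited matrix holds the authors' whole-number read counts per Ensembl gene, not normalised. The largest library total is 1.01 times the smallest, and whether reads were brought to a common depth before counting was not tested. The deposited comparison table holds the authors' log2 fold changes and log2 mean CPM, and its p-values and FDR come from a test not given in the sources used here, per the file headers. The submitters' processing notes name, without roles, edgeR, bedtools 2.26.0, Bowtie2, Bowtie 1.1.2 and TopHat2 2.1.0, and for builds mm10, GRCm38.p6, GRCh37 and hg19.

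Of 38951 lines, 27 repeats of an ID were dropped. Counts were filtered with filterByExpr (minimum count 10, total 15), scaled by TMM and tested across 13355 genes with edgeR 4.0.16 in R 4.3.3 (robust quasi-likelihood F test, two-sided, no replicate block, threshold 0.05). Intervals use the gene's SE and the t distribution. Alternatives used DESeq2 1.42.0, limma 3.58.1 and the settings of the closing section. The procedure was also run on simulated counts, with changes set only in genes of higher counts. That run does not cover genes with few reads, such as Lin37, Lin52 and Rb1, nor a change as small as that of Foxm1. Promoter letters were searched on both strands. Replicates of 1 group were compared gene by gene, and their chi-square was 1.26 to 1.48 times its degrees of freedom, above counting noise alone, so no pair was treated as 1 library deposited again. Levels per exon length were planned but not computed, as no exon lengths were used here. The genes and lists were chosen with earlier results of these data known. Named were all 10 genes, the E2F, DP, Rbbp7 and MYB partners, the 2 genes of smallest p in each other list and the 5 genes most like Lin9 in pattern, and other genes were named for their position or after their values were seen.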

Additional observations from a re-analysis of the deposited data

How the results depend on the processing

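The Lin9 call held in all 13 alternatives, with log2 fold changes from -0.60 to -0.43 and adjusted p up to 0.048 (DESeq2). The Foxm1 call was lost in 5: DESeq2 (-0.16, adjusted p = 0.166) and without 4-OHT replicate 1 (-0.15), 4-OHT replicate 3 (-0.13), control replicate 1 (-0.15) or control replicate 3 (-0.15), with values from -0.19 to -0.13 over the libraries left out; the cause was not tested. The direction of Lin37 turned without 4-OHT replicate 3 (0.030) and control replicate 2 (0.010), its values without 1 library lying between -0.19 and 0.030, and that of Lin52 without 4-OHT replicate 3 (0.15, range -0.26 to 0.15). Rbbp7, close to 0, turned with library totals alone (0.0031) and without 4-OHT replicate 2 (0.0028), control replicate 1 (0.0014) or control replicate 2 (0.013, range -0.033 to 0.013). None of these 3 was called under any alternative. The other 8 of the 10 genes kept their direction in all 13 alternatives, and Lin54, Rbbp4, Mybl2, Rbl1, Rbl2 and Rb1 were not called in any.

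Over all genes, 691 were lower and 616 higher. With library totals alone the balance turned, to 647 lower and 705 higher. DESeq2 called 350 and 174, and without 1 library 508 to 643 were lower and 403 (without control replicate 1) to 542 higher; fewer libraries enter these last fits, and for DESeq2 the cause was not tested. With the replicate number as a replicate block, 665 were lower and 579 higher and Lin9 and Foxm1 were the members called (log2 fold changes -0.49 and -0.15). Deviations from the group means correlated at -0.0097, 0.0096 and -0.026 between same-numbered libraries, so no variation shared by replicate number was seen. Such values cannot tell whether same-numbered libraries were prepared together. The shares and ratios kept their direction when reads were summed and without each library, between -3.90 and -2.56 percentage points for Lin9, 0.25 and 0.40 for log2 of Rbl2 to Rbl1, and -0.22 and -0.14 for log2 of Foxm1 to Mybl2. The direction of the Rbl2 to Rbl1 ratio follows from the levels of Rbl1 and Rbl2, neither of which overlapped between groups. The Lin9 share and the Foxm1 ratio likewise repeat the levels of Lin9 and Foxm1. The pocket protein shares and the Foxm1 ratio were added after seeing the data. Depth limits Lin37, Lin52 and Rb1, with 30 to 55 reads in each library, most.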

Other observations

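The spread between libraries was set beside the spread that counting alone would give. For Foxm1 the coefficient of variation was 4.23% over 4-OHT libraries and 0.241% over control libraries, where the mean count gives 3.36%. For Rbbp4 it was 1.11% and 0.590%, where counting gives 3.40%, so both genes varied less between control libraries than independent counts would on average. For Lin9 it was 3.45% in 4-OHT and 13.1% in control libraries, where counting gives 8.91%, and for Lin52 28.9% and 5.89%, where it gives 15.2%. With 3 libraries a group these values are themselves imprecise, and their origin was not tested.

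Of the early cell cycle targets, Tk1, Cdt1 and Gins2, named after their values were seen, are listed at 0 in all 6 libraries, although the replicative helicase gene Mcm7, of the same list and named likewise, has 2118 reads over the 4-OHT and 2409 over the control libraries. Whether their reads were lost in counting was not tested.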
